A study of Mus musculus with 12 samples.

Results

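The untreated group (Ctrl) in a study of mesenchymal stem cells from mouse bone marrow was examined here for what these cells express without any added compound. All libraries that the labels give as untreated were taken, which are 3 of the 12 libraries of the series and are called libraries 1, 2 and 3 after the number in their labels. The other groups received cytochalasin D, CK666 or both, compounds that act on the actin cytoskeleton, and they were not used. The cells of all groups were kept in MEM with 10% fetal bovine serum and antibiotics, plated at 10000 cells per square centimetre and held for 1 day before the treatments began. The untreated cells received no compound, and the labels give no strain, age, sex or passage. They do not say whether the 3 libraries came from separate animals, isolations or cultures, so the spread between them may be technical. Expression was read from the 23358 gene rows of the deposited table, as RPKM, meaning reads per kilobase of the listed gene length, scaled to the depth of the library, and a row at RPKM 1 or more in all 3 libraries is called detected.

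Marrow stromal cells are the adherent, non-blood cells of the marrow. They lay down matrix, release cytokines and chemokines that hold and feed blood-forming cells, and can become bone, fat or cartilage cells under the control of lineage transcription factors. Such cells are usually recognised by a panel of surface proteins together with the absence of the blood cell antigen CD45 (Ptprc), since no single gene defines them.

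The sums of counts over genes lay between 49657966 and 56565900 per library. For a gene without a read, the upper limit is taken as 3 counts, which covers counting error alone. All counts were even numbers, and the limit would be wider where a fragment gave a count from each of its ends. Of all rows, 7091 (30.4%) had no read in any of the libraries. The ribosomal RNA row Rn45s took 2.45% to 2.91% of the counts. RPKM sums per library were between 357304 and 366669, so a level given as TPM, which sums to a fixed total, would be higher throughout.

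The cells were checked against the markers of their label and of other cells. Of 23 stromal markers found in the table, 15 were detected, beside 44.2% of all rows. Vim, an intermediate filament of mesenchymal cells, stood at RPKM 2320, 2247 and 2373, and Itgb1, the beta 1 integrin subunit, at 319, 316 and 313. The platelet-derived growth factor receptors Pdgfrb and Pdgfra had means of 110 ± 3.33 and 30.5 ± 1.93 (SD, n = 3), the surface protein Ly6a (Sca-1) 70.1 ± 4.28 and the hyaluronan receptor Cd44 12.9 ± 0.444. Other members of the usual surface panel were near 0. Thy1 (CD90) had 0, 0 and 4 counts in libraries 1, 2 and 3, Nt5e (CD73) had 12, 4 and 8, and the leptin receptor gene Lepr had 22, 40 and 28. Eng (CD105, a coreceptor for TGF-beta) had an RPKM of 0.542 ± 0.0673, and Ngfr had no read, which allows an RPKM of up to 0.0157.

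Markers of other cells were mostly under the threshold. Ptprc had no read in any library, nor did the macrophage genes Aif1, Tyrobp, C1qa, C1qb and C1qc, and 2 of 19 macrophage markers were detected, Cd14 at 2.42 ± 0.0982 and Lyz2 at 1.24 ± 0.283. The 14 endothelial markers summed to an RPKM between 1.60 and 1.75 per library, most of it from Egfl7 (1.29, 1.12 and 1.27), the 1 member detected, with Cdh5 without a read and Pecam1 at 8, 4 and 4 counts. The 22 erythroid, lymphoid and granulocyte markers summed to between 4.65 and 6.12. Of these, 2 were detected, the erythropoietin receptor gene Epor (2.76, 2.97 and 2.91) and the granulocyte gene Camp (1.43, 2.86 and 1.99), and Hba-a1, Hbb-b1, Cd3e and Ms4a1 had no read. Of 10 osteoclast markers 2 were detected, the protease gene Ctsk (cathepsin K) at 56.8 ± 0.420 and the transcription factor gene Nfatc1 at 5.36 ± 0.205, while Acp5 had 2, 0 and 0 counts and Dcstamp none. Of 12 epithelial markers 1 was, the keratin Krt19, at 5.51 ± 0.414. In bulk RNA, fewer cells of a type and less RNA per cell cannot be told apart. By contrast, 11 of 14 smooth muscle and contractile markers were detected, led by Acta2, the smooth muscle actin, at RPKM 1423, 1423 and 1461. Myh11, the smooth muscle myosin heavy chain, had 22, 22 and 26 counts and was not detected. The Y-linked genes Eif2s3y (31.8 ± 1.75), Ddx3y (16.0 ± 1.07), Uty and Kdm5d were detected in all 3 libraries, while Xist, the RNA of the inactive X, had 2, 0 and 4 counts.

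In all, 10324 rows (44.2%) were detected. Of these, 5166 (22.1% of all rows) were at RPKM 10 or more in each library, 556 (2.38%) at 100 or more and 29 at 1000 or more. A few rows therefore held much of the RNA. The 10 rows with the most counts took 11.2% ± 0.320 (SD, n = 3) of all counts and the 100 with the most 26.7% ± 0.329, and the 29 rows at RPKM 1000 or more took 14.5% ± 0.545. The rows that were not detected are the 7091 without a read and 5943 others, which held 0.383% of the counts. Of those, 342 reached RPKM 1 in at least 1 library but not in all.

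Genes of the matrix led the ranking. Spp1 (osteopontin, chr5:104435111-104441053 in GRCm38 coordinates), a secreted phosphoprotein of bone matrix that binds integrins and CD44, was the highest row in every library, at RPKM 5065, 5205 and 5192. Mgp, the matrix Gla protein that limits mineral deposition, followed at 3682, 4121 and 4424. Spp1 lay above Mgp in each of the 3 libraries, and their ranges did not overlap. The next rows cannot be put in order: Mgp, Rn45s (3738, 3808 and 4410) and S100a6, a calcium-binding protein (3844, 3233 and 4008), had overlapping ranges. Bgn (biglycan, a small proteoglycan) was at 2906 ± 89.6 and Lox (lysyl oxidase, which crosslinks collagen and elastin) at 2554 ± 67.9. Thbs1 (thrombospondin 1, an adhesive glycoprotein that can release TGF-beta from its latent form) was at 2513 ± 215 and Sparc (osteonectin, a collagen-binding glycoprotein) at 1657 ± 5.15.

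The remaining rows among the 15 highest serve general cell functions. They were the elongation factor Eef1a1 (2772 ± 138), the ferritin chains Ftl1 (2638 ± 173) and Fth1 (2235 ± 32.4), Vim (2313 ± 63.0), Tpt1 (1921 ± 103), the galectin Lgals1 (1859 ± 92.4) and the cytoplasmic actin Actg1 (1834 ± 104). Eef1a1, Tpt1, the ferritins, the actins and the ribosomal protein genes have near-identical copies elsewhere in the genome, and their values are uncertain where reads could be split. Lars2 (rank 19) is uncertain for the same reason, since its row can take up mitochondrial ribosomal RNA. All 10 of the highest rows were the same in the 3 libraries, and 95 rows were among the 100 highest in each of them.

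**Figure D1:**
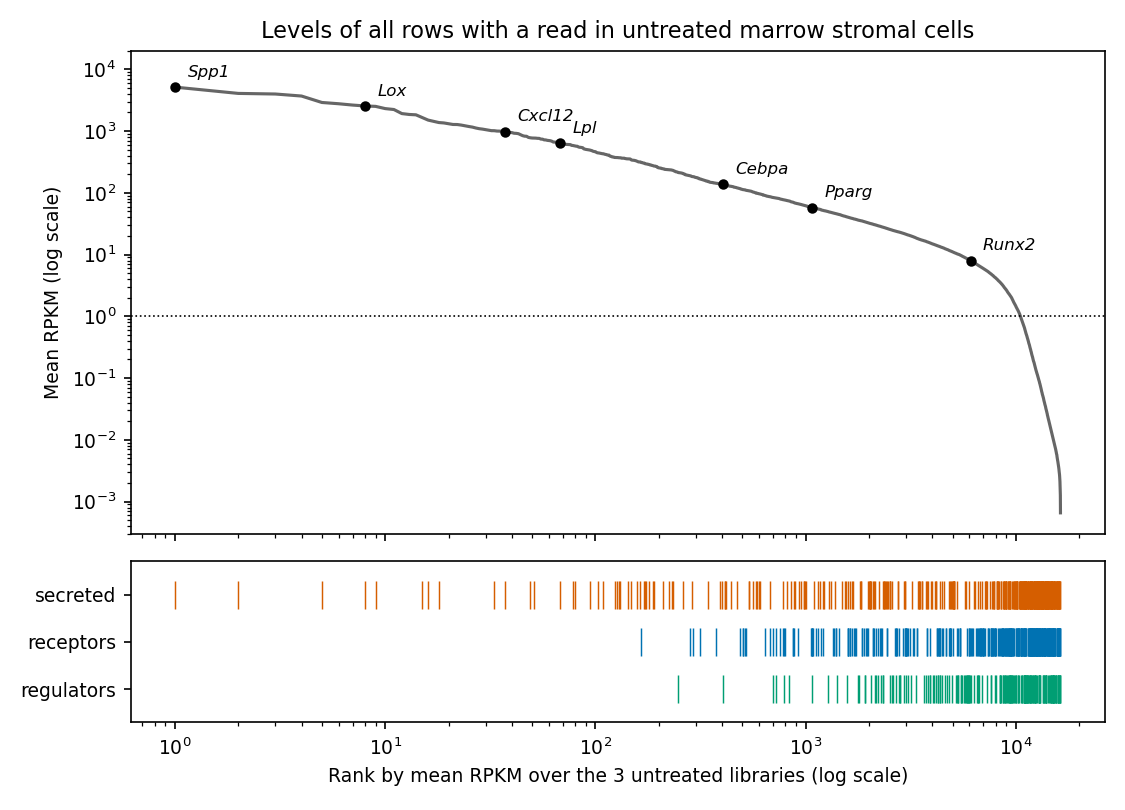
Mean RPKM of every row with a read against its rank (both axes logarithmic), and, below, the ranks of the members of the secreted, receptor and regulator lists that had a read. The dotted line is RPKM 1. Secreted genes reach rank 1, while the highest receptor gene, Itgb1, has rank 164 and the highest regulator, Ctnnb1, has rank 248.

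The matrix and signalling genes were then taken by class. The 20 lists of secreted factors, matrix proteins and extracellular enzymes held 473 genes, of which 192 (40.6%) were detected, 136 at RPKM 10 or more and 49 at 100 or more. The 13 receptor lists held 390 genes with 183 (46.9%) detected, and the 13 lists of lineage regulators 281 genes with 107 (38.1%) detected. Of all rows, noncoding ones included, 44.2% were detected, and of the 18560 rows matched to protein-coding genes 49.6%. The receptor share lies between these values, and the secreted and regulator shares lie below both. The counts of single lists that follow are to be read beside the same shares. The classes differed more in level than in number detected: secreted genes took 14.5% ± 0.248 of all counts, receptors 2.47% ± 0.0378 and regulators 0.822% ± 0.0125 (SD, n = 3). At RPKM 100 or more there were 49 of 473 secreted genes, 10 of 390 receptors and 2 of 281 regulators, beside 2.38% of all rows. The receptor share is near that of all rows. The members nearest to the threshold were Notch4 (0.955 ± 0.0519) and Itga7 (0.966 ± 0.120) below a mean RPKM of 1, and Col15a1 (1.013 ± 0.0876), Ccl25 (1.04 ± 0.234) and Cfb (1.04 ± 0.202) above it. Each of these had at least 1 library under RPKM 1, so none was detected.

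Among the structural proteins of the matrix, 18 of 33 collagen genes were detected. The chains of type I collagen, the main fibre of bone and tendon, led with Col1a2 at 1413, 1547 and 1560 and Col1a1 at 942, 1068 and 1034. Type VI chains, which form beaded filaments around cells, came next (Col6a1 585 ± 35.3, Col6a2 370 ± 23.8), with the fibril-regulating chain Col5a2 (370 ± 13.5) and the basement membrane chain Col4a1 (287 ± 4.05). Col3a1, the fibrillar collagen of soft connective tissue, was lower, at 151, 124 and 126. The cartilage collagen Col2a1 was at 2.19 ± 0.563 and Col10a1, of enlarged cartilage cells, at 2.77 ± 0.551.

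Of 48 adhesive and elastic glycoproteins, 32 were detected and 13 were at RPKM 100 or more. Besides those named above, they included Fn1 (fibronectin, 1375 ± 106), Ctgf (a matricellular protein, 444 ± 36.4), Thbs2 (316 ± 31.8) and Fbln2 (fibulin 2, 275 ± 32.3). Elastic fibre genes were unequal. Efemp2, which brings lysyl oxidase to elastin, was at 245 ± 11.9 and the microfibril gene Fbn1 at 62.6 ± 4.78, while Eln (elastin itself) had no read, which allows an RPKM of up to 0.0142. The small leucine-rich proteoglycans were as uneven: Bgn had rank 5 of all rows, and its relatives Dcn (decorin) and Fmod (fibromodulin) had 12, 10 and 26 and 14, 34 and 48 counts, with Lum (lumican) at 0 in all 3 libraries, which allows up to 0.0258. Ogn (osteoglycin) was at 180, 107 and 112, high in library 1 and lower in the other 2.

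Enzymes that build the matrix were nearly all present. Of 14 crosslinking and modifying enzymes, 13 were detected, and after Lox the highest was Pcolce, an enhancer of procollagen processing, at 772 ± 7.86. Loxl1 was at 100 ± 3.12, and Loxl2 (0.652 ± 0.152) was the member not detected. Of 30 matrix proteases, 19 were detected, led by the cathepsin Ctsl (372 ± 16.0), the membrane-bound collagenase Mmp14 (302 ± 10.5) and the cathepsin Ctsb (273 ± 10.1). The gelatinase Mmp2 was at 11.4 ± 1.18, and the inflammatory metalloproteinases Mmp1a, Mmp3, Mmp7, Mmp8, Mmp10 and Mmp12 had no read. Of 17 protease inhibitors 9 were detected, with a list median RPKM of 4.94 against 8.5 for the proteases, and 6 were at RPKM 100 or more in each library against 4 proteases. Cst3 (cystatin C) was at 779 ± 19.1, Timp2 at 374 ± 4.20, Serpinf1 (PEDF) at 355 ± 8.49 and Timp1 at 296 ± 20.1.

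Few chemokine genes were detected, and 1 of them was very high. Of 35 chemokine ligand genes 7 were detected (20%), beside 44.2% of all rows. Cxcl12 (chr6:117168535-117181368), which holds blood-forming cells in the marrow, was at RPKM 1269, 839 and 825 (978 ± 252) and ranked 23, 44 and 49 in the 3 libraries. Library 1 stood apart, while libraries 2 and 3 were close. The monocyte attractants Ccl7 (46.2 ± 4.63) and Ccl2 (41.7 ± 4.80) and the membrane-bound Cx3cl1 (29.1 ± 2.51) came next, then Ccl9 (15.8 ± 1.10). The interferon-induced chemokines Cxcl10 and Cxcl11 had no read and Cxcl9 had 4, 2 and 0 counts, and Cxcl5 had 0, 2 and 0.

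Of 53 interleukin and blood cell growth factor genes, 8 were detected. The macrophage migration inhibitory factor gene Mif had RPKM values of 296, 325 and 352, the macrophage growth factor gene Csf1 of 151, 157 and 153, and Il1rn, which encodes the antagonist of interleukin 1 receptors, of 127, 117 and 116. Kitl (stem cell factor) was at 40.3 ± 5.96, and Clcf1, a cytokine of the interleukin 6 family, at 14.2 ± 0.419. The agonists that Il1rn opposes were near 0: Il1a had 10, 4 and 4 counts and Il1b none. Il6 was at 0.204 RPKM (8, 12 and 20 counts), Il7 at 1.09 ± 0.192 and Thpo, a growth factor of platelet-forming cells, at 8, 20 and 28 counts. The T cell and colony-stimulating cytokines Il2, Il3, Il4, Il5, Csf2 and Csf3 had no read.

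Growth factors of vessels were detected in 17 of 24 cases (70.8%), beside 44.2% of all rows, without any at RPKM 100. Angpt1, which stabilises vessels, was at 64.5 ± 5.64, Angptl2 at 54.8 ± 1.92, Angptl4 at 48.2 ± 4.73 and Vegfa at 38.1 ± 1.80. Of the platelet-derived growth factor genes, those detected were Pdgfd (31.9 ± 3.66), Pdgfa (30.3 ± 1.92) and Pdgfc (11.0 ± 0.378), and Pdgfb (0.516 ± 0.0521) was not. The fibroblast growth factor list was the reverse, with 2 of 22 genes detected: Fgf7, a factor for epithelial cells, at 136, 123 and 123, and Fgf2 at 14.4, 16.0 and 15.4. The other 20 had an RPKM under 1, and 12 of the 22 had no read. Hgf (hepatocyte growth factor) was at 27.4 ± 4.09.

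The insulin-like growth factor axis was carried by few members. Igfbp7 was at 544, 588 and 583 and Igfbp4 at 413, 530 and 536, the latter lowest in library 1. Igf2 was at 39.3 ± 3.87 and Igf1 at 2.47 ± 0.418. The other binding protein genes were near 0, with Igfbp6 at 10, 0 and 14 counts, Igfbp5 at 2, 6 and 4, Igfbp2 at 0, 4 and 2, and neither Igfbp1 nor Igfbp3 with a read.

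Of 34 genes in the TGF-beta superfamily list, 11 were detected. Bmp1, which despite its name is a procollagen protease, was at 98.1 ± 4.29. The signalling ligands followed with Tgfb3 at 53.9 ± 3.49, Tgfb1 at 41.0 ± 2.67, the activin subunit gene Inhba at 27.1 ± 1.98 and Bmp4 at 25.02 ± 1.39. Bmp2, a strong inducer of bone, was not detected (0.301 RPKM). Of the antagonists, Fstl1 was at 429 ± 23.0, Nbl1 at 51.7 ± 1.68 and Twsg1 at 38.6 ± 0.486, while Nog (noggin) had no read and Grem1 (gremlin) had 8, 6 and 8 counts.

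Of 23 Wnt and R-spondin genes 3 were detected: Rspo2, which strengthens Wnt signalling through LGR receptors, at 146, 133 and 133, Wnt5a at 11.6, 10.6 and 10.1, and Rspo3 at 1.95, 1.30 and 1.28. All 3 were highest in library 1. Of 12 secreted Wnt antagonists 5 were detected. The Wnt-binding antagonist Sfrp1 was at 204 ± 4.25, Dkk3 at 32.0 ± 1.05, Sfrp2 at 25.7 ± 1.91 and Frzb at 12.7 ± 1.77, and Dkk1, Wif1 and Sost (a product of bone-embedded osteocytes) were near or at 0. Among remaining secreted genes, Gas6, the ligand of the AXL kinase, was at 103 ± 3.46. Lpl (lipoprotein lipase) was at 642 ± 70.4, Tnfrsf11b (osteoprotegerin, a soluble decoy for the osteoclast factor RANKL) at 32.5 ± 1.19 and Adipoq (adiponectin, made by fat cells) at 11.1 ± 0.915. Tnfsf11, which encodes RANKL, had 0, 0 and 4 counts. Of complement and pentraxin genes 6 of 22 were detected, with Masp1 at 31.7 ± 2.41 and C3 at 1.31 ± 0.0498.

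**Figure D2:**
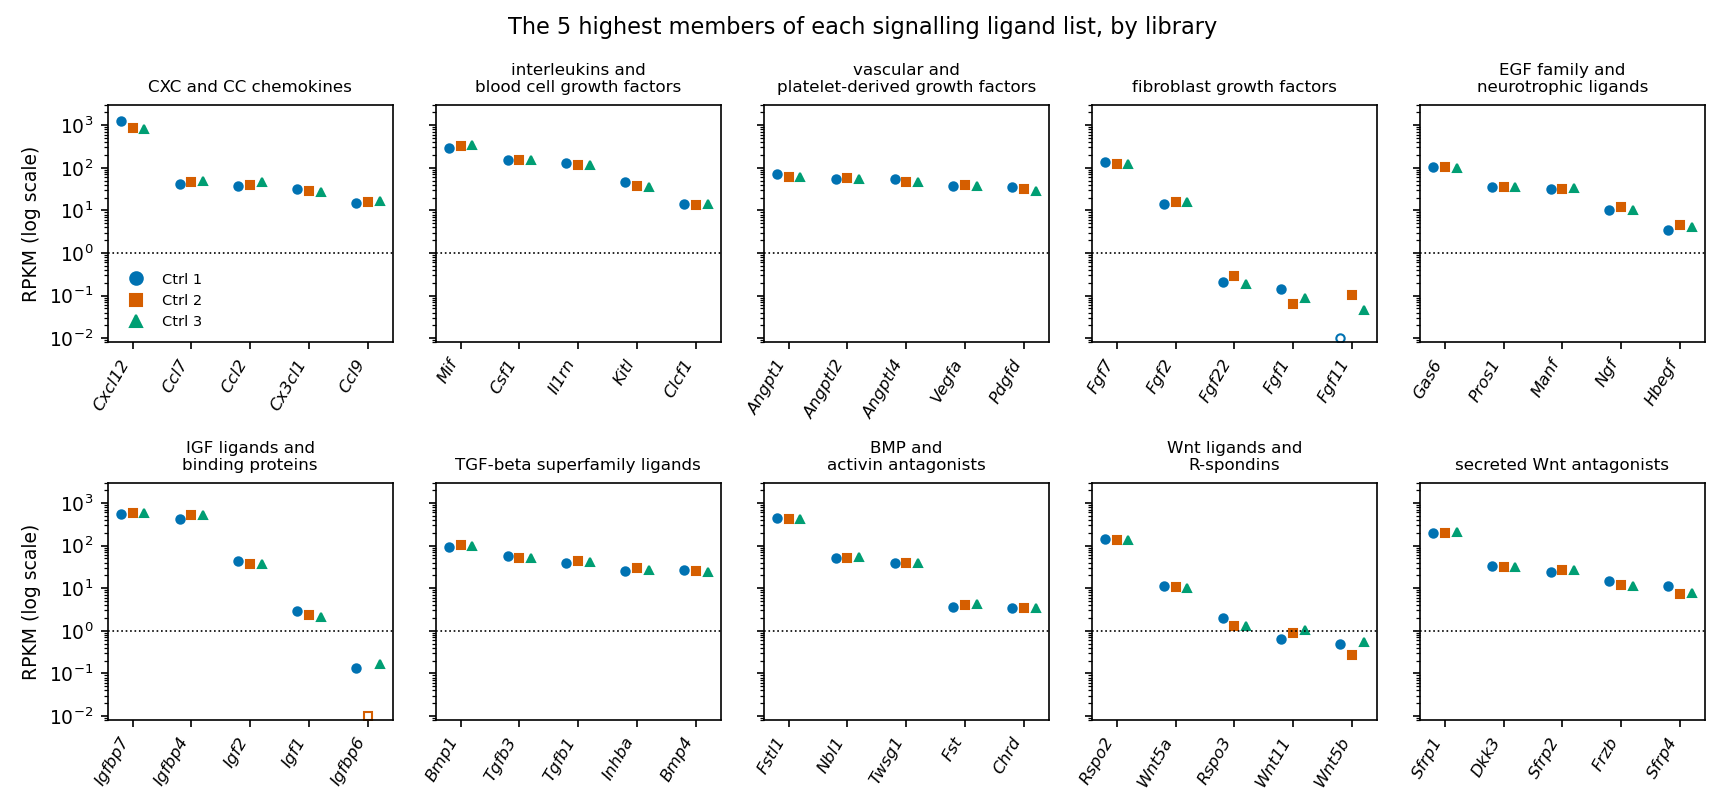
RPKM (log scale) of the 5 highest genes in each of 10 lists of secreted signalling proteins, with 1 symbol per untreated library. Open symbols at the foot are libraries with an RPKM under 0.01, and the dotted line is RPKM 1. Cxcl12 is the only gene drawn here that passes 600, and of the fibroblast growth factor genes drawn only Fgf7 and Fgf2 lie above the line.

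On the receiving side, 22 of 43 receptor tyrosine kinases were detected. Axl was at RPKM 159, 171 and 173 and Pdgfrb at 113, 111 and 107, followed by Ptk7 (76.6 ± 3.29), the collagen receptor kinase Ddr2 (58.1 ± 5.08) and Fgfr1 (56.1 ± 1.65). Ret, a receptor for glial cell line-derived factors, was at 26.5 ± 2.86, and the insulin and insulin-like growth factor receptors Insr (6.07 ± 0.252) and Igf1r (6.99 ± 0.229) were lower. Kit, the receptor of stem cell factor, was at 5.001, 2.98 and 2.60, highest in library 1. The vascular receptors Kdr, Flt1 and Tek were near 0, at 4, 2 and 4, at 0, 0 and 10 and at 22, 32 and 16 counts.

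Cytokine receptor genes were detected in 22 of 42 cases (52.4%), beside 44.2% of all rows, at moderate levels. Both chains of the interferon gamma receptor (Ifngr1 70.8 ± 2.89, Ifngr2 58.5 ± 0.891) led, with Il6st, the shared signal chain of the interleukin 6 family (57.8 ± 2.76), and its partners Osmr (30.1 ± 2.61) and Lifr (9.90 ± 0.475). Of 25 genes of the TNF receptor family 10 were detected, with Tnfrsf12a (183 ± 5.62) and Tnfrsf1a (112 ± 0.653) the highest. None of 22 chemokine receptor genes was detected: Cxcr4, the main receptor of Cxcl12, had 0, 0 and 2 counts, its other receptor gene Cxcr7 had 8, 14 and 16, and Ccr2 had none.

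Receptors of the TGF-beta and Wnt families were detected in 10 of 17 (58.8%) and 13 of 19 cases (68.4%). The share over all rows was 44.2%. The betaglycan gene Tgfbr3 was at 47.3 ± 5.27, Bmpr1a at 37.7 ± 1.71, Tgfbr2 at 28.0 ± 0.747 and Tgfbr1 at 12.3 ± 0.361. The frizzled genes Fzd1 (51.7 ± 2.18), Fzd7 (34.0 ± 0.421) and Fzd2 (28.9 ± 1.51) led the Wnt receptors, with Lrp6 at 23.2 ± 0.918 and the R-spondin receptor genes Lgr4 (18.3 ± 0.692), Lgr6 (13.98 ± 0.991) and Lgr5 (5.35 ± 0.366). Of 11 Notch and hedgehog receptor genes 8 were detected, with the hedgehog transducer Smo at 44.7 ± 0.946 and Notch3 at 18.4 ± 0.578. Of 10 ligand genes of both pathways 2 were detected, Dlk2, a noncanonical Notch ligand, at 11.3 ± 0.547 and Jag1 at 2.14 ± 0.158, and none of the hedgehog genes was.

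The matrix receptors hold the highest gene of the class. Integrin genes were detected in 12 of 26 cases, with Itgb1 at 316 ± 2.83, Itgb5 at 189 ± 3.82, Itgav at 70.3 ± 3.13 and the fibronectin receptor chain Itga5 at 66.3 ± 4.34. Of the collagen-binding alpha chains, Itga11 was at 15.6 ± 1.11 and Itga1 at 1.29 ± 0.0493, and Itga2 (2, 18 and 12 counts) was not detected. Syndecans, glypicans and matrix coreceptors were detected in 22 of 33 cases, with the heparan sulphate carriers Sdc1 (143 ± 4.27) and Sdc4 (116 ± 3.19) the highest. Among G protein-coupled receptors, 20 of 62 were detected. These were led by the thrombin receptor F2r (113 ± 3.95), the vasopressin receptor Avpr1a (79.3 ± 2.34), the sphingosine phosphate receptor S1pr3 (52.7 ± 2.33) and the adrenergic receptor Adra1d (40.4 ± 1.33). Pth1r, the parathyroid hormone receptor of bone-forming cells, had 14, 14 and 28 counts. Of 48 nuclear receptors 26 were detected, with Pparg highest (57.7 ± 3.14), the glucocorticoid receptor Nr3c1 at 20.3 ± 0.936 and the vitamin D receptor Vdr at 4.65 ± 0.603. Of pattern recognition receptors 9 of 21 were detected, led by Tmem173 (STING, which signals the presence of DNA in the cytosol, 13.5 ± 0.230), and they included the lipopolysaccharide receptor Tlr4 (9.90 ± 1.04) and its partner Ly96 (11.7 ± 2.50).

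For 99 ligand and receptor pairs, both genes were set side by side. Both were detected in 39 pairs, the ligand alone in 26, the receptor alone in 22 and neither in 12. Of the 54 detected ligands in the table, 33 had at least 1 listed receptor detected and 21 had none. The highest ligand without a listed receptor was Cxcl12, followed by Csf1, whose receptor gene Csf1r was at 0.662 ± 0.0718, and Angpt1, whose receptor gene Tek was at 0.0859. The monocyte attractants Ccl7 and Ccl2, the ephrin Efnb1 and Vegfb were of this kind too. Efnb1 was listed with Ephb2 alone, while the Eph receptor genes Ephb4 (11.6 ± 0.790) and Ephb3 (8.31 ± 0.0677) were detected. Vegfb was listed with Flt1 alone, and Nrp1, listed for Vegfa, was at 45.8 ± 2.99. The 1 pair with both genes at a mean RPKM of 100 or more was Gas6 with Axl. The matrix ligands were paired with lower receptors, Spp1 with Itgav and Cd44, Fn1 with Itga5, and Col1a1 with Ddr2. Fgf7 (127 ± 7.63) stood against its receptor Fgfr2 (19.4 ± 0.385), and Rspo2 (137 ± 7.77) against Lgr5 (5.35 ± 0.366). Pairs with the receptor alone included Pdgfb with Pdgfrb, although Pdgfrb is also listed with Pdgfd, and that pair had both genes detected. Others were Gdnf (0.945 ± 0.0379) with Ret, Tslp with Crlf2 and Tnfsf10 with Tnfrsf10b. The list fixes pairs of single genes, and other partners of the same ligand or receptor were not counted. A ligand without a listed receptor may thus have another receptor that was detected.

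**Figure D3:**
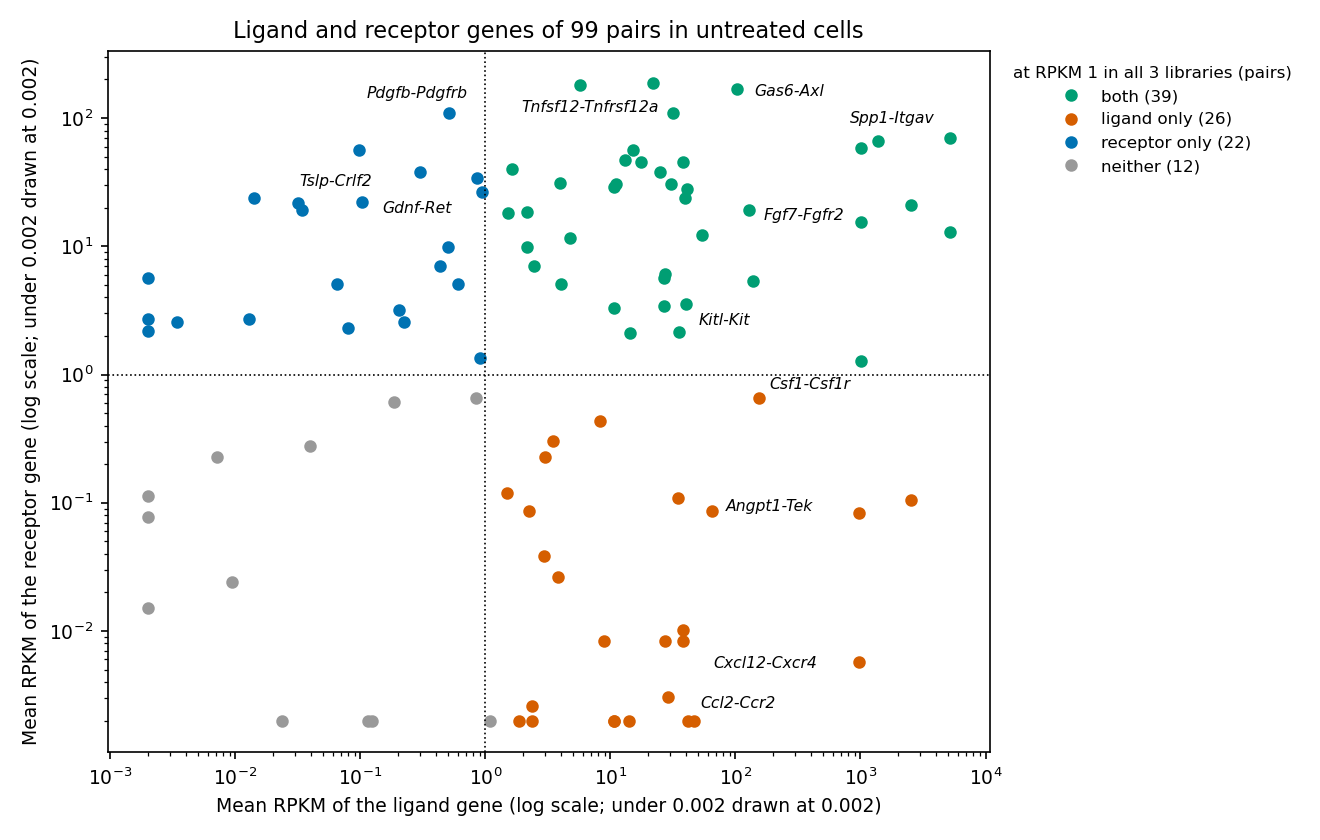
Mean RPKM of the ligand gene against that of the receptor gene for 99 pairs (both axes logarithmic), coloured by which of them was detected in all 3 untreated libraries. Dotted lines are RPKM 1. The lower right holds the 26 pairs with the ligand alone, and the upper right the 39 pairs with both. Of the pairs with the ligand alone, Thbs1 with Cd36 (2513 and 0.105) lies farthest to the right, followed by those of Cxcl12 (978). Thbs1 is also listed with Cd47, and that pair had both genes detected.

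Transcription factors of fat and bone cells were both detected, at different levels. Of 20 regulators of the adipocyte lineage 14 were detected. Cebpa, which with Pparg drives fat cell formation, was at RPKM 145, 130 and 137, rank 402 of all rows, and was 1 of 2 regulators at 100 or more in each library. Pparg was at 61.2, 56.7 and 55.2, Ebf1 at 29.2 ± 1.74 and Cebpb at 27.8 ± 4.40. Products of mature fat cells were mixed: Fabp4 was at 78.8 ± 4.95 and Plin1, a lipid droplet protein, at 3.06 ± 0.340, while Cfd (adipsin) had 10, 10 and 8 counts and Lep (leptin) had none.

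Of 18 osteoblast lineage regulators 12 were detected. Atf4, also a general stress factor, was highest at 74.0 ± 4.91. Runx2, needed for bone cell formation, was at 8.14, 8.08 and 7.67, and Sp7 (osterix), which acts after it, had 4, 30 and 60 counts and a mean RPKM of 0.225. Sp7 was thus low in all 3 libraries and lowest in library 1. Of 14 osteoblast markers 4 were detected, Spp1 and Col1a1 at the levels given above and Phospho1 (3.29 ± 0.380) and Smpd3 (2.79 ± 0.0362). Alpl, the mineralising phosphatase, was at 0.873, 1.43 and 1.56, under the threshold in library 1. Bglap (osteocalcin) and Ibsp (bone sialoprotein) had at most 2 counts in a library, and Bglap2, of the same marker list, had 0, 6 and 10.

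Of 18 cartilage and tendon regulators 9 were detected, 4 of them at RPKM 10 or more in each library. Sox9, the main regulator of cartilage, was at 1.94, 1.82 and 1.94 and the tendon factor Scx at 1.19 ± 0.306, the latter under 1 in library 1. Sox6 had 0, 4 and 0 counts, and Acan, the main cartilage proteoglycan, had no read. The highest of that list serve other lineages too: the immediate early gene Egr1 was at 60.7, 102 and 90.4, Foxc1 at 30.3 ± 1.59, Mef2a at 30.05 ± 0.898, Mef2d at 22.9 ± 1.26 and Foxc2 at 11.2 ± 1.48. None of the skeletal muscle factors Myod1, Myf5, Myf6, Myog and Pax7 had a read. Myocd, the coactivator of smooth muscle genes, had 4, 0 and 0 counts, while the serum response factor Srf (21.4 ± 0.921) and its coactivators Mkl1 (16.5 ± 0.267) and Mkl2 (5.39 ± 0.0795) were detected.

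General mesenchymal factors were led by Prrx1, a limb and connective tissue homeobox gene, at 87.7, 81.2 and 78.9. Snai2 (36.1 ± 1.82) and Tbx15 (22.9 ± 0.694) were among the other members detected, and 24 of 49 members were detected. Genes that mark other sites of the body within that list, such as Tcf21, Hand1, Hand2 and Wt1, had no read. The limb genes Tbx5 and Tbx4 had 2, 2 and 2 counts and none, and Pitx1, a hindlimb factor, was at 8.67 ± 0.492. Signal effectors were detected in 22 of 26 cases, with the beta-catenin gene Ctnnb1 at 213 ± 5.42, Id3 at 77.2 ± 1.42 and the Hippo effector Yap1 at 45.7 ± 1.24. Blood lineage regulators were detected in 1 of 23 cases, which was the widely expressed Tcf3 (24.6 ± 0.667), and 12 of the 23 had no read. Endoderm and epithelial factors were detected in 1 of 17 cases (Trp63, 1.67 ± 0.0700), and pluripotency genes in 3 of 21, which were Klf2, Myc and Klf4.

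The Hox genes, which record the position of a cell along the body axis, divided by cluster. Of 11 HoxA rows 8 were detected and of 9 HoxC rows 6, against none of 10 HoxB and none of 9 HoxD rows, whose highest mean RPKM was 0.00902 and 0.0113. Within HoxA and HoxC the genes of high paralogue number, which are the posterior and distal ones, were highest. Hoxa11 was at 25.5, 25.7 and 24.1, Hoxa10 at 24.4, 22.5 and 23.0, and Hoxa13 at 12.2, 12.1 and 12.2. Hoxc10 was at 21.1, 22.3 and 22.5, Hoxc13 at 10.2, 10.4 and 10.7 and Hoxc11 at 6.30, 6.60 and 5.75. Hoxa11 and Hoxa10 overlapped in range (24.1 to 25.7 and 22.5 to 24.4), and so nearly did Hoxa10 and Hoxc10, while Hoxa13, Hoxc13 and Hoxc11 did not overlap with any of these or with each other. Hoxa9 (3.03 ± 0.287) and Hoxc9 (3.54 ± 0.212) were lower, and Hoxc12 had no read between its neighbours. The rows of Hoxa5 and Hoxa6 overlap that of Hoxa3 in the table, so their values are uncertain, and Hoxa11 overlaps the antisense row Hoxa11as.

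**Figure D4:**
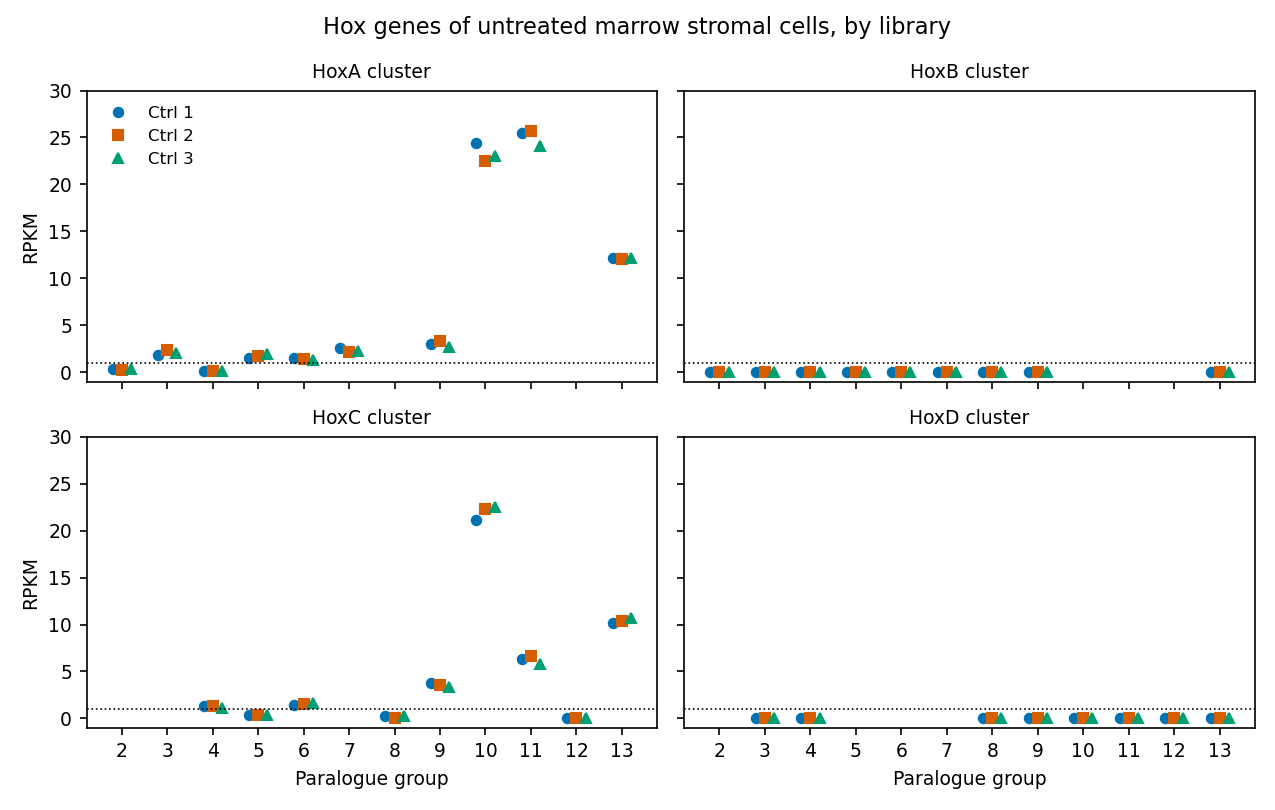
RPKM of Hox genes in the 4 clusters for paralogue groups 2 to 13, with 1 symbol per untreated library and a dotted line at RPKM 1. HoxA and HoxC genes of groups 10, 11 and 13 lie between 5.75 and 25.7, and all HoxB and HoxD genes drawn lie at or near 0.

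Housekeeping families set a scale for these shares. Of 97 cytosolic ribosomal protein rows 90 were detected, with a median RPKM of 372, and all 76 mitochondrial ribosomal protein rows were, with a median of 20.6. Proteasome subunits were detected in 48 of 49 cases. At the other end, 1 of 1123 olfactory receptor rows, none of 333 vomeronasal receptor rows, 2 of 52 keratins and 4 of 95 potassium channel rows were detected. Cell cycle genes were detected in 23 of 24 cases, led by Cdk4 (190 ± 6.67) and Ccnd1 (143 ± 2.07). The arrest genes Cdkn1a (89.8 ± 2.89) and Cdkn2a (27.1 ± 1.012) were detected along with the division genes Top2a (23.0 ± 3.04) and Mki67 (5.92, 8.85 and 7.73). Imprinted genes were detected in 10 of 26 cases, with Gnas at 215 ± 2.93, and the growth-limiting noncoding RNAs H19 and Meg3 had 2, 0 and 0 and 8, 0 and 0 counts.

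The 3 libraries were close to each other. The median coefficient of variation (the SD as a percent of the mean) over the 10324 detected rows was 4.57%, and 86.9% of rows were under 10%. Across detected genes, which are not independent replicates, log2 RPKM correlated between pairs of libraries with Pearson's r of 0.995 to 0.997. The counts differed by more than counting error, so none was a copy of another. Chi-square per degree of freedom was 22.5 between libraries 1 and 2, 20.5 between 1 and 3 and 11.8 between 2 and 3. Since all counts were even, these values may be too high, and on halved counts they were 11.2, 10.3 and 5.90. The common biological coefficient of variation in edgeR was 6.98%. The median was 5.95% between RPKM 1 and 10, 3.65% between 10 and 100, 3.52% between 100 and 1000 and 5.38% for the 29 rows at 1000 or more, so spread did not fall steadily with level. By class, it was 6.75% for detected secreted genes, 4.77% for receptors and 5.37% for regulators. Some abundant genes hardly varied, such as the chaperonin gene Cct5 at 157.1, 156.9 and 156.9 and Sparc at 1651, 1660 and 1659.

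A few genes went against this pattern. Tmem158, a membrane protein gene (chr9:123259057-123260789), was at 1.49, 320 and 1.21, with 150, 31052 and 134 counts, so that library 2 stood far above the other 2. Sap30l, a subunit gene of a histone deacetylase complex (chr11:57801637-57810615), was at 259, 15.1 and 15.4, high in library 1. Dpp9, a peptidase gene, was at 22.6, 44.9 and 22.4, high in library 2. The other 5 of the 8 most variable rows with a mean RPKM of 5 or more were the short RNA genes Snord104, Scarna9, Mir3960, Mir568 and Mir5133, whose counts were between 6 and 68. Such genes are under 100 bases long and their RPKM rests on few reads.

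Library 1 stood apart most often. Of the 49 detected rows with a mean RPKM of 5 or more and a coefficient of variation over 20%, which include those 8, it was the library farthest from the other 2 in 36, higher in 21 and lower in 15. Library 2 was farthest in 8 and library 3 in 5. Higher in library 1 were Cxcl12, Ogn, Vcam1, an adhesion molecule (66.3, 45.0 and 44.6), the peptidase Mme (11.4, 6.55 and 6.19) and the immune recognition gene H2-K1 (29.9, 18.6 and 18.1). Lower in library 1 were genes of the immediate early response to serum, namely Egr1, Zfp36 (10.2, 22.0 and 20.3), Ier2 (14.3, 27.9 and 24.6) and Junb (18.3, 30.5 and 30.04). Of the 23 detected cell cycle genes 14 were lowest in library 1, beside 3312 of all 10324 detected rows, Mki67 among them. Of 32 detected adhesive glycoproteins 19 were lowest there as well, while 7 of 9 pattern recognition receptors and 6 of 8 adipokines were highest there, beside 4214 of all detected rows. Across detected rows the deviation of a library from the other 2 correlated with log2 gene length at r of -0.00521 in library 1, 0.224 in library 2 and -0.256 in library 3. These lists and genes were picked after their values were seen, and what part gene length has in the values was not tested.

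**Figure D5:**
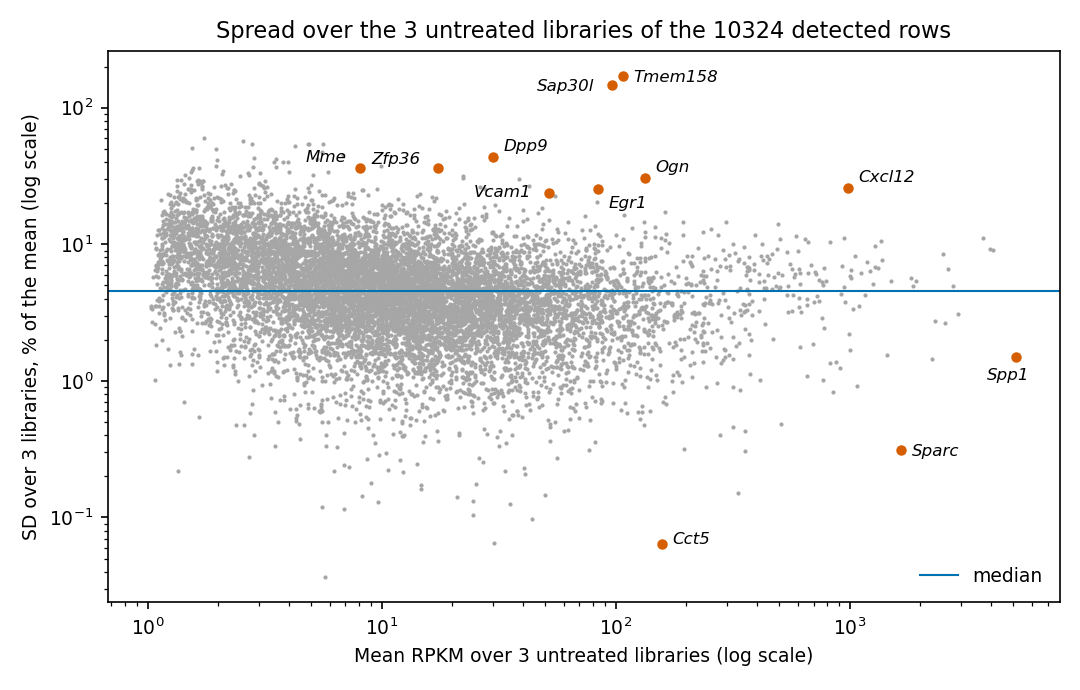
Coefficient of variation over the 3 untreated libraries against mean RPKM for the 10324 detected rows (both axes logarithmic), with a line at the median of 4.57%. Tmem158 (171%) and Sap30l (146%) lie above all other rows, and Cxcl12 (25.8%) is the most variable of the rows above RPKM 900.

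The promoters of the genes were set beside their levels, using the RefSeq promoter table of GRCm38.p6. The 250 bases before the start were taken for 13235 genes with a single start in that table. CpG sites, the pairs of bases that carry DNA methylation in mammals, were counted in these windows. The median was 2 for genes without a read, 7 for those with reads but not detected, 17 for RPKM 1 to 10, 18 for 10 to 100, 17 for 100 to 1000 and 14 for the 18 genes at 1000 or more, against 10 over all. The letters TATAAA, the core of the TATA box, were looked for on the gene's strand between 45 and 15 bases before the start. They were found in 5.94% of genes without a read and in 3.35% of those with reads but not detected. The share was 0.768% at RPKM 1 to 10, 1.10% at 10 to 100 and 3.32% (11 of 331 genes) at 100 to 1000. At 1000 or more 1 of 18 genes had them, against 3.16% over all 13235. A match is a description of letters and shows no use of the site. The windows shown span this range: Vim, the gene among those 18 that holds TATAAA (chr2:13574061-13574310, plus strand, 8 CpG sites), Cxcl12 (chr6:117168285-117168534, plus strand, 14 CpG sites) and Cxcl9, a chemokine gene close to silence here (chr5:92328080-92328329, minus strand, 3 CpG sites). Capitals mark CpG sites and, in Vim, the TATAAA that begins 32 bases before the start.
Vim: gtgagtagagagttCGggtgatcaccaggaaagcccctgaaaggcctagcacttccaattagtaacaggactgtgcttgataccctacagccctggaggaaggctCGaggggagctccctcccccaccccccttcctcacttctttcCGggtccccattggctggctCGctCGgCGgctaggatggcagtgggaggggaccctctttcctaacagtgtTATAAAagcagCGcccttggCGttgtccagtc
Cxcl12: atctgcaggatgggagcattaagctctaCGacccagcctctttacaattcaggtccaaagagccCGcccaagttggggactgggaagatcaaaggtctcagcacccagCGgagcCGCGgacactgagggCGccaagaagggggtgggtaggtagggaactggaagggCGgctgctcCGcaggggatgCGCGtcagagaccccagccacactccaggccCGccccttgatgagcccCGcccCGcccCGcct
Cxcl9: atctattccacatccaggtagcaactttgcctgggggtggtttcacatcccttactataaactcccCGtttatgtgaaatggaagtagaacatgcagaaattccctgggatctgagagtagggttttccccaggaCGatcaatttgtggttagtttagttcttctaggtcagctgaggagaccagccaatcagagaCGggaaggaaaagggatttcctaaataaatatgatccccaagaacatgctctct
Cxcl12 and Cxcl9 have no TATAAA in the stretch searched. Vim has fewer CpG sites than Cxcl12 and was the higher of them in each library. Cxcl9 has the fewest CpG sites of the 3, and its bases are 44.4% G or C against 58.4% in Vim and 64.4% in Cxcl12.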

How the data were processed

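Total RNA of the 3 untreated samples was extracted with a miRNeasy kit, per the labels' protocols. The authors deposited one table with a read count per gene for each library, and the submitters' processing notes name CASAVA 1.9, TopHat 12.0.6, HTSeq and the build hg19. The gene coordinates are those of mouse: of 20886 rows matched by name to GRCm38, 20786 (99.5%) overlapped the same gene there. The RPKM values are the authors' own, as deposited, and rest on library totals of 56003801 to 63892143, of which 10.9% to 11.5% are not in the gene rows. The deposited gene length, in bases, is the one the authors' RPKM used. Whether strand was used is not given in the sources used here, so overlapping genes cannot be separated.

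Means, SDs, coefficients of variation, ranks and list counts were computed in Python 3.11.15 (numpy 2.4.6, pandas 2.3.3, matplotlib 3.10.9). The biological coefficient of variation was estimated in edgeR 4.0.16 (R 4.3.3) from the counts, with TMM factors and a filter on low counts, and was tested on simulated data. No comparison with treated cells was made. The 61 gene lists (1391 entries, 1389 found, 8 of them under another symbol) and 99 pairs were chosen with earlier results of these data known. Eligible to be named by rule were the 15 highest rows, the 5 highest members of each list, the first 5 of each list as written, both genes of a pair named, the 3 members nearest each side of the threshold and the 8 most variable rows at RPKM 5 or more. Not all of these are printed, and other genes were named after their values were seen. Alternatives covered the threshold, TPM, TMM scaling, the filter on low counts and each library left out. A few list members are not reported here.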

Additional observations from a re-analysis of the deposited data

How the results depend on the processing

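The 10324 detected rows came to between 9353 (RPKM 2 or more) and 11298 (TPM 1 or more) under the alternatives, and the numbers of secreted, receptor and regulator genes detected and of pairs with both genes (39, between 35 and 47; alternatives for the pairs were chosen after seeing the data) stayed within 1.5 times. The number of rows at 100 or more in all 3 libraries did not: it was 556 by RPKM and 1696 by TPM, since RPKM sums to less than TPM. The share of counts in the 10 most counted rows was 9.305% without Rn45s, against 11.2%. The median coefficient of variation, 4.57%, was 4.544% with TMM scaling, 4.827% as TPM and between 3.299% and 4.034% when 1 library was left out, lowest without library 1. The biological coefficient of variation, 6.98%, was 6.996% with total counts only, 7.475% with no filter on low counts, 6.111% on halved counts and between 5.306% and 7.842% when 1 library was left out, again lowest without library 1. Of 525 levels of named genes, 449 moved by more than 1 SD as TPM and 291 with TMM scaling, and 148 of 525 ranks moved by over 1.5 times when ranked by counts and not per length. Leaving out 1 of 3 libraries cannot move a mean by 1 SD, so the values per library are the guide there. No paired analysis was possible because a single group was described. Depth limits what can be said of genes at a few counts, and with 3 libraries the SDs are imprecise.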
